A study of Homo sapiens with 8 samples.

Results

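Mitochondria are remodelled by fusion and fission of their membranes, and the RNA of 10 genes for this machinery was followed: MFN1, MFN2 and OPA1 for fusion, IMMT and OPA3 for the inner membrane and its cristae, DNM1L, FIS1, MTFR1 and GDAP1 for fission, and PINK1 for mitophagy. All probe sets that the array's probe table assigns to these genes alone were taken, 17 of the 22215 probe sets tested. MFN1 and OPA1 have 3 probe sets each, MFN2, MTFR1 and PINK1 have 2 each, and the other 5 genes have 1. A375P cells, an established human melanoma line, had been made into stable lines by a lentivirus that carried 1 short hairpin RNA, and 8 arrays were run. PGC1α, a transcriptional coactivator encoded by PPARGC1A that drives mitochondrial biogenesis, was targeted by hairpin 65 (2 arrays) or hairpin 66 (2 arrays), and the controls carried shGFP (2 arrays) or shScr (2 arrays). Puromycin was applied for 48 h to every line, controls included, and RNA was collected another 48 h later. The labels leave unsaid whether both arrays of a hairpin are from different cultures, so p-values describe the spread among these arrays, part of which may be technical. In RNA of whole cultures, a lower level in each cell and fewer cells with the transcript cannot be told apart.

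As background, outer membranes of neighbouring mitochondria are fused by the dynamin-related GTPases MFN1 and MFN2, and inner membranes by OPA1, which also keeps the necks of cristae tight. Division is carried out by the cytosolic dynamin-related GTPase DRP1, encoded by DNM1L, which is drawn to the outer membrane by adaptor proteins. Cristae hang from the inner boundary membrane at junctions built by the MICOS complex, whose core subunit mitofilin is the product of IMMT. On damaged mitochondria the kinase PINK1 gathers on the outer membrane and recruits the ubiquitin ligase Parkin, which marks them for autophagy.

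Values are array signals on a linear scale, and changes are differences of means of log2 signal, PGC1α hairpin arrays minus control arrays. The target itself, PPARGC1A, averaged 556 ± 11.7 on control arrays and 125 ± 13.9 on PGC1α hairpin arrays (SD, 4 arrays each), 4.48-fold lower (exact two-sided permutation p = 0.0286, the smallest that 4 against 4 arrays allow). Of 10 melanocyte lineage markers, 9 were measured, and their summed signal was 19146 to 20641 in the control arrays and 15172 to 16391 with the PGC1α hairpins (1 of the 9 rose and 4 fell). Of all 11963 genes, 10.8% rose and 9.79% fell in the same comparison. MITF, the lineage's master transcription factor, averaged 7420.0 and 4918 in the 2 arms, PMEL 1075 and 436, and S100B 3687 and 2704. TYRP1 averaged 98.6 and 41.6, with uneven controls of 51.7 to 158. These are the 4 that fell, and MC1R rose from 251 to 314. SOX10, at 3652 and 4100.0, and MLANA, dim at 37.5 and 25.0, did not pass the test. Summed signals in the 2 arms ranged over 2474 to 3132 and 3341 to 3763 for 6 epithelial markers, mostly from KRT18, which rose. They ranged over 793 to 1310 and 869 to 1017 for 6 fibroblast markers, 186 to 206 and 186 to 202 for 4 blood markers, and 115 to 133 and 139 to 158 for 4 endothelial markers. The part of these marker shifts in the results was not tested. The 3′ minus 5′ log2 difference of the ACTB control probe sets, a measure of RNA integrity, averaged 2.19 ± 0.18 on control arrays and 2.53 ± 0.11 on knockdown arrays (SD, 4 arrays each), 0.35 apart by an exact permutation p of 0.0286. The GAPDH values of the 2 arms, 0.17 and 0.18, gave an exact permutation p of 0.571.

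In the comparison of the 4 PGC1α hairpin arrays with the 4 control arrays, 3 of the 17 probe sets fell, 1 each of MFN2, OPA1 and IMMT, and 0 rose. That is 17.6% of these probe sets, beside 18.0% of all 22215 probe sets called in the same limma fit, 9.49% higher and 8.46% lower (adjusted p under 0.05, by Benjamini and Hochberg over all probe sets). The share is thus close to that of the whole array. The 3 falls were small, 13.9% to 18.2%. The other 14 changes lay between -0.10 and 0.13 on the log2 scale, and the median over all 17 was 0.01, against -0.00468 over the whole array. At the median the size of the change without its sign was 0.066, and 0.102 over the whole array. The 4 knockdown arrays lay entirely below the controls for the same 3 probe sets and entirely above them for 0, 17.6% beside 24.0% of all probe sets.

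**Figure D1:**
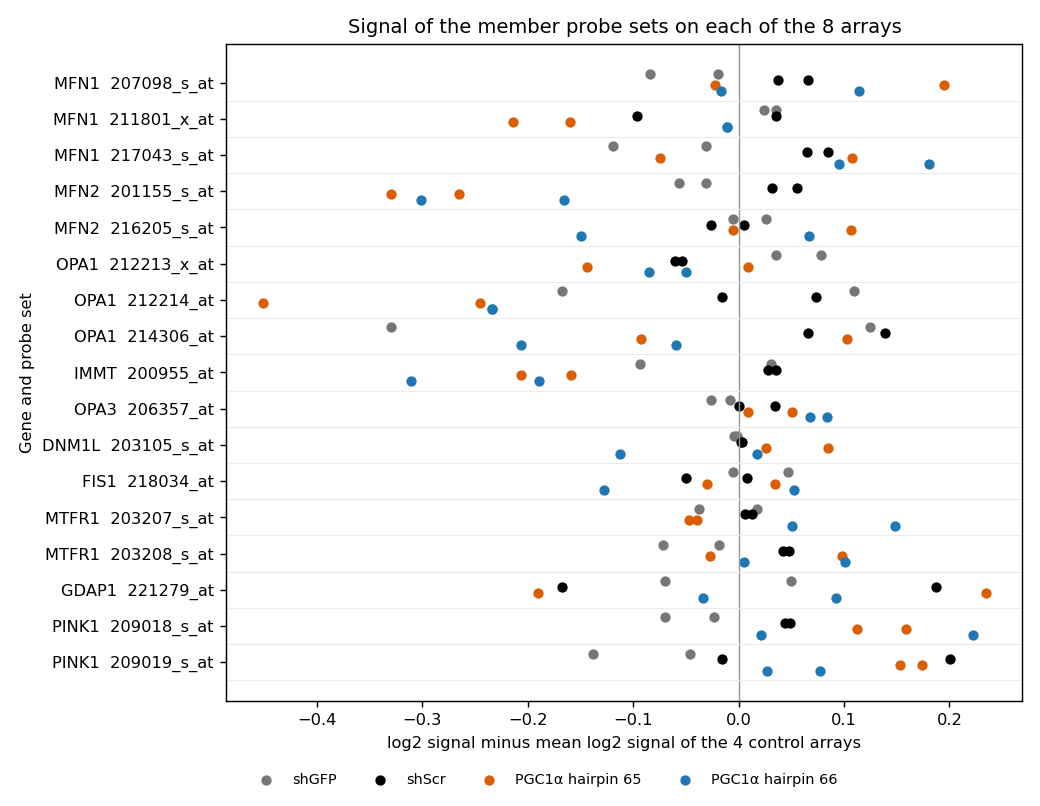
Log2 signal of each of the 17 probe sets on each array, minus the mean log2 signal of the 4 control arrays (horizontal axis); each line is a probe set of a gene, and colours are the 4 hairpins. The orange and blue points lie wholly left of the grey and black ones for MFN2 201155_s_at, OPA1 212214_at and IMMT 200955_at, and the arms overlap in the other 14.

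**Figure D2:**
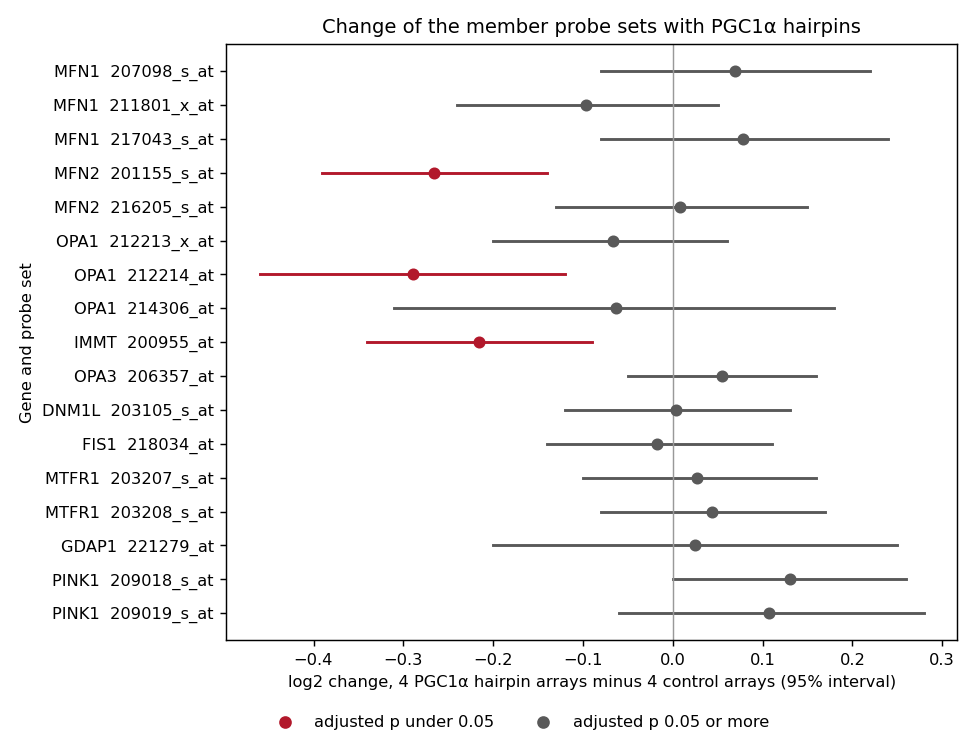
Log2 change of each probe set, the mean of 4 PGC1α hairpin arrays minus that of 4 control arrays (point), with its 95% interval from the limma fit (line); red marks an adjusted p under 0.05. The 3 red points, 1 probe set each of MFN2, OPA1 and IMMT, have intervals below 0, and all changes lie between -0.29 and 0.13.

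Among the fusion genes, the mitofusin MFN2 was lower with both PGC1α hairpins. Its probe set 201155_s_at had signals of 1716 and 1747 with shGFP, 1824 and 1855 with shScr, 1420 and 1485 with hairpin 65, and 1448 and 1591 with hairpin 66. The highest knockdown array lay below the lowest control array. MFN2 averaged 1786 ± 64.9 in the controls and 1486 ± 74.7 in the knockdown (SD, 4 arrays each), a fall of 16.8% with a 95% interval of the change from -23.8% to -9.22% (log2 change -0.27, SE 0.06, adjusted p = 0.00926 with limma). It was called with hairpin 65 (log2 change -0.30, adjusted p = 0.0141) and with hairpin 66 (-0.23, adjusted p = 0.0365), and the control hairpins differed by -0.09 (shGFP minus shScr, adjusted p = 0.558).

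The second MFN2 probe set, 216205_s_at, gave no such picture. Its signals were 135 to 140.0 in the controls and 124 to 148 in the knockdown arrays, with overlapping arms and a log2 change of 0.01 (95% interval -0.13 to 0.15, adjusted p = 0.957). Within each array, 201155_s_at exceeded 216205_s_at by 3.70 ± 0.07 (log2, SD, n = 4) in the controls and by 3.43 ± 0.12 (SD, n = 4) in the knockdown arrays. That difference of -0.27 has an exact permutation p of 0.0286, the smallest possible, and 0.0572 after adjustment over the 4 within-array differences examined, a family chosen after seeing the data. The MFN2 call ended with the 2 arrays of each hairpin averaged (adjusted p = 0.113), with the ACTB difference as a covariate (log2 change -0.25, adjusted p = 0.261), and without shScr (0.0534) or hairpin 65 (0.0961), in a range of 0.00171 to 0.261 over 22 alternatives. The ACTB difference of each knockdown array lay above that of each control array, so this covariate is confounded with the comparison. With it the SE was 0.102, against 0.0565 in the main fit.

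MFN1, the other mitofusin, did not pass the test with any of its probe sets in the main fit. The highest-signal probe set, 207098_s_at, read 524 and 501 with shGFP, 556 and 545 with shScr, 523 and 608 with hairpin 65, and 575 and 525 with hairpin 66. The arms overlap, with a log2 change of 0.07 (95% interval -0.08 to 0.22, adjusted p = 0.553). The others gave -0.10 (211801_x_at, 95% interval -0.24 to 0.05) and 0.08 (217043_s_at, 95% interval -0.08 to 0.24). By hairpin, 211801_x_at gave -0.19 with hairpin 65 (adjusted p = 0.0707 with limma) and -0.007 with hairpin 66. The difference between them did not pass (adjusted p = 0.704). With hairpin 65 this probe set was called lower after quantile normalization and without the 40% dimmest probe sets. Set against MFN1 207098_s_at on the same array, MFN2 201155_s_at stood 1.75 ± 0.04 log2 units higher in the controls and 1.42 ± 0.14 higher in the knockdown (SD, n = 4). The shift of -0.34 in this within-array difference has an exact permutation p of 0.0286, the smallest possible. After adjustment over the same 4 differences it was 0.0572. With 4 against 4 arrays, the adjusted value could pass only if most of the 4 differences sat at that smallest p. The test therefore does not decide whether MFN1 and MFN2 changed unequally. The shift says nothing about their relative levels.

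The promoters of MFN2 and MFN1 are shown because the genes encode the related mitofusins, of which MFN2 had a called probe set. Promoter sequences are those of RefSeq for GRCh38.p14, which hold 7 of the 10 genes, and the 250 bases before the start are printed in the direction of the gene. Each window of 300 bases (250 before and 50 after the start) was searched on both strands for 4 motifs of 7 letters. These are AAGGTCA, the half-site of ERRα and related nuclear receptors; CATGCGC, the core of NRF1 sites; ATGGCGG, the core of YY1 sites; and CCGGAAG, the core of ETS sites such as those of GABP. They occur in 3.92%, 4.43%, 5.55% and 10.3% of 35116 promoters, in the same order. Capitals mark a match on either strand. MFN2 (chr1:11980194-11980443, plus strand) holds none of the 4, and MFN1 (chr3:179347459-179347708, plus strand) holds CCGGAAG from 63 bases before the start on the opposite strand and from 22 bases before it on the gene's own strand.
MFN2: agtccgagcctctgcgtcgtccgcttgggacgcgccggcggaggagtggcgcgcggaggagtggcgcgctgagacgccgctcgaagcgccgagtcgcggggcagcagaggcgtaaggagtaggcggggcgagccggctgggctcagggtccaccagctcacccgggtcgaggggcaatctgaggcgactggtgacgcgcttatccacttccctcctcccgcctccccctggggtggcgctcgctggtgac
MFN1: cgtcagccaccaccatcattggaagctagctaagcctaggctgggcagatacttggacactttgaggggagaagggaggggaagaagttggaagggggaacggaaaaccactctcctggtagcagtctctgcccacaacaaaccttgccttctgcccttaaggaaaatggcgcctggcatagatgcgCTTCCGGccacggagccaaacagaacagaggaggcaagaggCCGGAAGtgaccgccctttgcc

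OPA1, the inner membrane fusion GTPase, was lower with 1 of its 3 probe sets. Probe set 212214_at read 326 and 269 with shGFP, 318 and 299 with shScr, 255 and 221 with hairpin 65, and 257 and 257 with hairpin 66. The knockdown arrays all lay below the controls, and the array of hairpin 65 at 221 lay apart from the other 3. The means were 303 ± 25.2 and 248 ± 17.7 (SD, 4 arrays each), a fall of 18.2% with a 95% interval of the change from -27.4% to -7.71% (log2 change -0.29, adjusted p = 0.0279 with limma). By hairpin the log2 change was -0.35 with hairpin 65 (adjusted p = 0.0418) and -0.23 with hairpin 66 (adjusted p = 0.150), and the difference between them of -0.11 did not pass (adjusted p = 0.865).

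The other OPA1 probe sets did not pass. For 212213_x_at, the one with the highest mean signal, the arms overlap at 408 to 449 and 385 to 428, with a log2 change of -0.07 (95% interval -0.20 to 0.06, adjusted p = 0.509). For 214306_at they overlap at 146 to 202 and 159 to 197 (log2 change -0.06, 95% interval -0.31 to 0.18, adjusted p = 0.769). Within arrays, the change of 212214_at did not differ detectably from that of 212213_x_at (difference -0.22, exact permutation p = 0.114) or of 214306_at (-0.23, exact permutation p = 0.371). The call of 212214_at ended without shGFP replicate 1 (adjusted p = 0.0763), shScr replicate 1 (0.0684) or 2 (0.0502), and hairpin 65 replicate 1 (0.0511) or 2 (0.0686). With the ACTB difference, which separates the arms, as a covariate its log2 change was -0.15 (SE 0.126 against 0.0776 in the main fit, adjusted p = 0.653). The call also ended with hairpin as a random block (adjusted p = 0.0589), with the 2 arrays of each hairpin averaged (0.0996), and without shScr, hairpin 65 or hairpin 66. It held in 11 of 22 alternatives, over which the adjusted p ranged from 0.0141 to 0.653.

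The OPA1 promoter is shown because it holds the longest motif match of the 7. CATGCGC occurs there on both strands, overlapping into GCGCATGCGC, a full NRF1 palindrome that begins 94 bases before the start; this run of 10 letters is found in 1.24% of the 35116 promoters. A further CATGCGC lies 18 bases after the start, outside the printed part. Among the other promoters searched, DNM1L has CATGCGC from 100 bases before its start on the opposite strand, FIS1 has CCGGAAG from 9 bases before its start, and OPA3 has none of the 4 motifs. AAGGTCA and ATGGCGG were in 0 of the 7 windows, which says only that these letters are not there. The match is a description of sequence, and binding was not measured. The printed part of OPA1 lies at chr3:193592958-193593207 on the plus strand.
OPA1: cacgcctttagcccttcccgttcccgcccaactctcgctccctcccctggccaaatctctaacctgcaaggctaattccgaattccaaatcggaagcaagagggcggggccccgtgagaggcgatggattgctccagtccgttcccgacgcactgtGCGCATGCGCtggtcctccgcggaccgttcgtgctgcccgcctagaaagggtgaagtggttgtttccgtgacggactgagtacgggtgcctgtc

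For the cristae, IMMT, the core MICOS subunit, was lower. Its single probe set read 4674 and 5096 with shGFP, 5084 and 5111 with shScr, 4322 and 4469 with hairpin 65, and 4021 and 4375 with hairpin 66. All 4 knockdown arrays lay below all controls, though shGFP replicate 1 at 4674 was lower than the other 3 controls. IMMT averaged 4991 ± 211 in the controls and 4297 ± 194 in the knockdown (SD, 4 arrays each), a fall of 13.9% with a 95% interval of the change from -21.2% to -5.98% (log2 change -0.22, adjusted p = 0.0256 with limma). It was called with hairpin 66 (-0.25, adjusted p = 0.0353) and not with hairpin 65 (-0.18, adjusted p = 0.0963), while the difference between the hairpins was 0.07 (adjusted p = 0.884).

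The IMMT call ended without shGFP replicate 2 (adjusted p = 0.0655), shScr replicate 1 (0.0621) or 2 (0.0617), hairpin 65 replicate 1 (0.0583) or hairpin 66 replicate 1 (0.0695), and with hairpin as a random block (0.0506). With the ACTB difference, which separates the arms, as a covariate the change was -0.26 (SE 0.102 against 0.057 in the main fit, adjusted p = 0.252). The call also ended with the 2 arrays of each hairpin averaged (adjusted p = 0.169), and without shScr, hairpin 65 or hairpin 66. It held in 12 of 23 alternatives, over which the adjusted p ranged from 0.00316 to 0.252. OPA3, a mitochondrial membrane protein whose mutation causes optic atrophy, read 164 to 171 in the controls and 168 to 177 in the knockdown arrays, overlapping, with a log2 change of 0.06 (95% interval -0.05 to 0.16, adjusted p = 0.5). The IMMT promoter, shown beside those of MFN2 and OPA1 as another gene with a call, holds CCGGAAG from 212 and from 33 bases before the start, both on the opposite strand, at chr2:86195463-86195712 on the minus strand.
IMMT: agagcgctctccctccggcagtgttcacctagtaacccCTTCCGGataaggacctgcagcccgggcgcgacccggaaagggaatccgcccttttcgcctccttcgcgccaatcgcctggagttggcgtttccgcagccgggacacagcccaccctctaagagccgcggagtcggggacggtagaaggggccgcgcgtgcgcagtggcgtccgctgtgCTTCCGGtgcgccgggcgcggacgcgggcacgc

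Of the fission genes, 0 of 5 probe sets passed the test, beside 18.0% of all probe sets. With so few probe sets, this count does not set them apart from the whole array. DNM1L, whose product DRP1 constricts the organelle, had nearly equal control arrays, 1144 and 1146 with shGFP and 1150.0 and 1149 with shScr. The knockdown arrays straddled them at 1168 and 1217 with hairpin 65 and 1161 and 1061 with hairpin 66. Its log2 change was 0.00384 with a 95% interval of -0.12 to 0.13 (adjusted p = 0.975), equal to a change of -7.96% to 9.23%. FIS1, an outer membrane adaptor of the division machinery, read 4470.0 to 4780.0 in the controls and 4237 to 4801 in the knockdown arrays, with a log2 change of -0.02 (95% interval -0.14 to 0.11, adjusted p = 0.888).

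MTFR1, a regulator that promotes fission, overlapped between the arms with both probe sets. For 203208_s_at the arrays ran from 1514 to 1645 and from 1562 to 1707 (log2 change 0.04, 95% interval -0.08 to 0.17), and for 203207_s_at from 590.0 to 613 and from 586 to 671 (0.03, 95% interval -0.10 to 0.16). In 203207_s_at hairpin 65 stood at 586 and 589 and hairpin 66 at 671 and 627, a difference of -0.14 that did not pass (adjusted p = 0.749). GDAP1, an outer membrane protein linked to fission and to hereditary neuropathy, had the dimmest of the 17 probe sets, with signals of 25.8 to 33.0 in the controls and 25.4 to 34.1 in the knockdown arrays. No detection calls were used, so whether this signal is above background is unknown; its interval of -0.20 to 0.25 is among the widest.

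For mitophagy, both PINK1 probe sets were on the higher side with the PGC1α hairpins without passing the test. Probe set 209018_s_at read 245 and 253 with shGFP, 265 and 266 with shScr, 287 and 278 with hairpin 65, and 261 and 300 with hairpin 66. Only hairpin 66 replicate 1 reached into the control range, and the log2 change was 0.13 (adjusted p = 0.177 with limma), with a 95% interval of the change from -0.17% to 20.1%. Probe set 209019_s_at ran from 398 to 503 in the controls and from 446 to 494 in the knockdown arrays, with a log2 change of 0.11 (95% interval -0.06 to 0.28, adjusted p = 0.405).

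Each hairpin on its own gave a similar count. With hairpin 65, 2 of 17 probe sets fell and 0 rose (11.8%, beside 18.2% of all probe sets, 10.1% higher and 8.11% lower), and with hairpin 66 also 2 fell and 0 rose (11.8%, beside 17.2%, 8.71% higher and 8.46% lower). MFN2 201155_s_at was called with both, OPA1 212214_at with hairpin 65 and IMMT with hairpin 66. Hairpins 65 and 66 share their controls. Directly between them, limma called 0 of 17 probe sets (1 at an unadjusted p under 0.05) and 0 of all 22215, so the calls made with 1 hairpin are not shown to differ from the other. Between the control hairpins 0 of 17 were called (0 at an unadjusted p under 0.05), beside 5.56% of all probe sets, 3.12% higher and 2.44% lower; 13 of the 17 were lower in shGFP than in shScr, by at most 0.21 on the log2 scale.

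**Figure D3:**
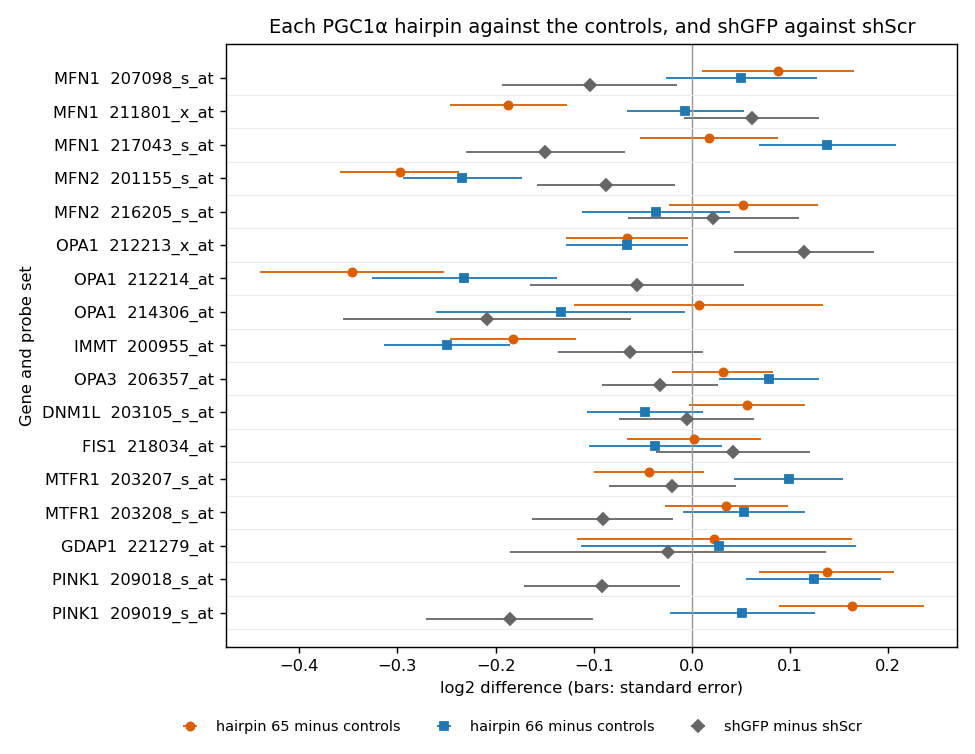
Log2 differences of the 17 probe sets (points, with standard errors from the 4-group fit as bars) for hairpin 65 minus controls, hairpin 66 minus controls, and shGFP minus shScr. MFN2 201155_s_at is the 1 probe set called with both PGC1α hairpins, at -0.30 and -0.23, and 0 are called between the controls.

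The genes whose log2 values over the 8 arrays, centred on their mean, ran closest to MFN2 201155_s_at were CELF1 (root-mean-square distance 0.0267), FARP2 (0.031) and SLC61A1 (0.0334), where the MFN2 profile itself has a root mean square of 0.143. Closest to IMMT were BRMS1 (0.0176), YTHDF1 (0.0279) and MRPL16 (0.0295), with 0.122 for IMMT itself. Among these 6 genes MRPL16 encodes a protein of the mitochondrial ribosome. The distances are a description over 8 arrays that share their hairpins.

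Beyond the 10 genes, 5 lists of partner genes held 86 genes, of which 64 were measured, each by its probe set of highest mean signal. Of these, 15 fell and 6 rose, 32.8% in all, beside 20.6% of all 11963 genes (9.79% lower and 10.8% higher). Their median log2 change was -0.10, beside -0.00468 over all probe sets. A negative change was seen in 43 of 64, a count for which no array-wide share was taken. Without the 40% of probe sets lowest in mean signal, 62 partner genes remained. Of these, 21 fell and 7 rose, where 33.9% of all probe sets kept were called, 16.3% lower. This share and those that follow count every probe set, while each partner gene is counted once. With the 2 arrays of each hairpin averaged, 6 of 64 fell and 2 rose, where 6.02% of all probe sets were called, 2.49% lower. Without hairpin 65, 8 fell and 3 rose (8.92% of all probe sets, 4.24% lower). With the ACTB difference, which separates the arms, as a covariate, 2 fell, AFG3L2 and MUL1, and 0 rose (3.05% of all probe sets, 1.41% lower). The median over the 64 genes was then -0.13.

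**Figure D4:**
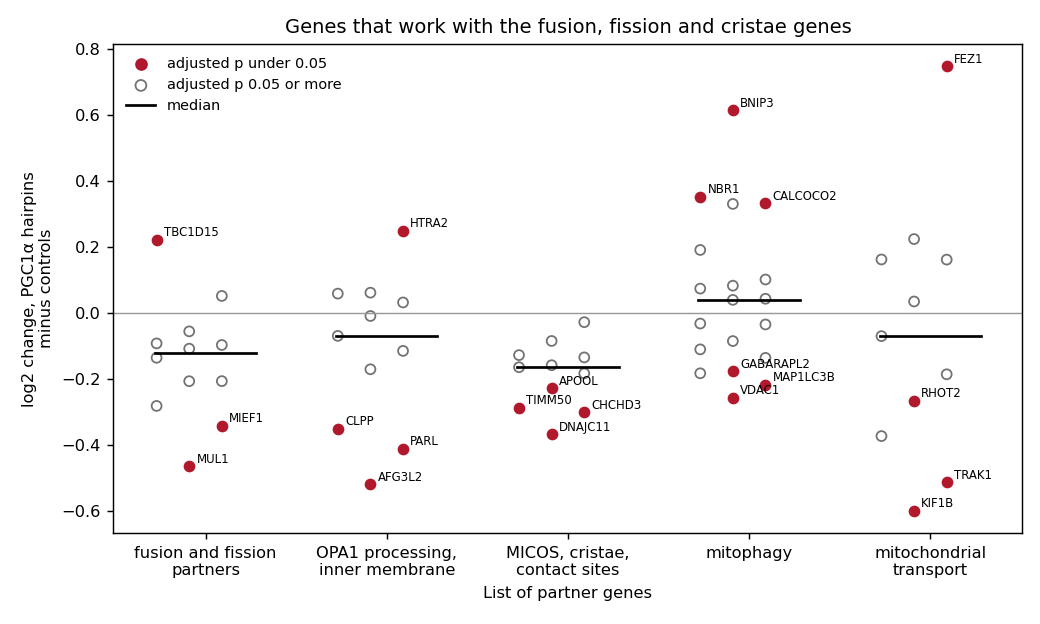
Log2 change (PGC1α hairpins minus controls) of 64 measured partner genes in 5 lists, each by 1 probe set; red points passed the test and carry their names, open points did not, and bars are list medians. The medians lie between -0.16 and 0.04. From left to right, 10 of 12, 7 of 11, 11 of 11, 9 of 19 and 6 of 11 genes lie below 0. In the MICOS list 4 of the 11 passed the test (36.4%, beside 20.6% of all genes).

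Among 12 measured partners of fusion and fission, 2 fell, 1 rose and 9 did not pass (25.0% called, beside 20.6% of all genes; median -0.12). MUL1, an outer membrane ubiquitin ligase that acts on mitofusin and DRP1, read 612 and 563 with shGFP, 604 and 579 with shScr, 424 and 427 with hairpin 65, and 429 and 428 with hairpin 66. The arms are far apart compared with their spread, and MUL1 was 1.38-fold lower (log2 change -0.46, adjusted p = 1.81e-04 with limma), with a call in 23 of 23 alternatives. MIEF1, an outer membrane receptor for DRP1, was 1.27-fold lower (1303 to 1028, adjusted p = 9.10e-04), and its 3 probe sets ran from -0.47 to -0.28. TBC1D15, a Rab GTPase-activating protein that binds FIS1, was 1.17-fold higher (adjusted p = 0.0135).

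In the list of OPA1 processing and inner membrane quality control, 3 of 11 fell, 1 rose and 7 did not pass (median -0.07). Called were 36.4%, beside 20.6% of all genes. AFG3L2, a subunit of the inner membrane m-AAA protease, read 956 to 999 in the controls and 644 to 736 in the knockdown arrays, with no overlap. It was 1.43-fold lower (log2 change -0.52, adjusted p = 2.20e-04 with limma), again with a call in 23 of 23 alternatives. PARL, the rhomboid protease that cleaves PINK1 in healthy mitochondria, was 1.33-fold lower (2039 to 1535, adjusted p = 0.00176), and CLPP, a matrix protease, 1.28-fold lower. HTRA2, a serine protease of the intermembrane space, was 1.19-fold higher (adjusted p = 0.0101), with log2 changes of 0.25 and 0.10 from its 2 probe sets. YME1L1, which cuts OPA1, had a log2 change of 0.06 (adjusted p = 0.468) by its probe set of highest signal. Its 13 probe sets ran from -0.16 to 0.19.

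In the list of MICOS, cristae and contact sites, 4 of 11 fell, 0 rose and 7 did not pass (median -0.16). Called were 36.4%, beside 20.6% of all genes. CHCHD3, the MICOS subunit that binds mitofilin, read 1863 and 1882 with shGFP, 1872 and 1976 with shScr, 1495 and 1678 with hairpin 65, and 1521 and 1482 with hairpin 66. It was 1.23-fold lower (adjusted p = 0.00535 with limma), and the arms did not overlap. DNAJC11, an outer membrane partner of MICOS, was 1.29-fold lower and TIMM50, a subunit of the inner membrane import channel, 1.22-fold lower. TIMM50 was dim (117 to 96.2, below the median signal per array of 137 to 142), and its call held in 17 of 23 alternatives. The fourth, APOOL, a further MICOS subunit named after its value was seen, had a log2 change of -0.23 (adjusted p = 0.0253) by its probe set of highest signal, and its other probe sets gave 0.01 and 0.07 without passing the test.

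Mitophagy genes went both ways, with 3 of 19 higher, 3 lower and 13 not past the test (median 0.04). Called were 31.6%, beside 20.6% of all genes. BNIP3, an outer membrane mitophagy receptor induced by hypoxia, read 2692 to 3491 in the controls and 4363 to 5020.0 in the knockdown arrays. It was 1.53-fold higher (adjusted p = 0.00103 with limma). The autophagy receptors NBR1 (1.28-fold) and CALCOCO2 (1.26-fold) also rose. VDAC1, the outer membrane channel that Parkin modifies, was 1.19-fold lower, MAP1LC3B 1.16-fold lower and GABARAPL2 1.13-fold lower; the last pair encode ubiquitin-like proteins of the autophagosome membrane, and their calls held in 11 of 22 and 8 of 22 alternatives.

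Genes of mitochondrial transport included the largest changes among the partners, with 3 of 11 lower, 1 higher and 7 not past the test (median -0.07). Called were 36.4%, beside 20.6% of all genes. KIF1B, a kinesin motor, was 1.51-fold lower (423 to 279, adjusted p = 0.00153 with limma). TRAK1, which joins mitochondria to kinesin, was 1.43-fold lower, with its 4 probe sets between -0.55 and -0.15, and RHOT2, the outer membrane GTPase to which TRAK proteins bind, 1.20-fold lower. FEZ1, a kinesin adaptor, was 1.68-fold higher (569 to 940.0, adjusted p = 0.00457), with log2 changes of 0.75 and 0.33 from its 2 probe sets. TRAK1 and FEZ1 differed between the control hairpins too, shGFP above shScr by 0.44 (adjusted p = 0.0148) and 0.56 (adjusted p = 0.00462) on the log2 scale, so that their control arrays were uneven. TRAK2 (shGFP minus shScr 0.62, adjusted p = 0.00291) and MYO19 (-0.54, adjusted p = 0.00719) also differed between the controls. That makes 4 of the 11 transport genes, beside 5.56% of all probe sets.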

How the data were processed

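Array signals of 8 samples were analysed. Per the labels, total RNA was purified on columns, primed with T7 oligo-dT and transcribed into biotin-labelled cRNA, read in 1 colour. The authors deposited a linear-scale intensity for each of 22277 probe sets, made with RMA (version not stated) per the submitters' processing notes; array image files and detection calls were not used here. Gene names are those of the array's probe table, checked against RefSeq (0 symbols changed), and 62 array control probe sets were left out of the tests.

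The log2 of each signal was taken, and all 22215 probe sets were tested with limma 3.58.1 in R 4.3.3 without a signal filter, with p-values adjusted by Benjamini and Hochberg and a threshold of 0.05. The main comparison was a 2-group fit with 6 residual degrees of freedom. Single hairpins and controls came from a 4-group fit with 4. Single values were tested by exact permutation of arrays. "Rose" and "fell" refer to probe sets past the threshold. The scripts were tested on simulated data. The number of arrays limits the precision, and the median signal per array was 137 to 142.

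The 10 genes, the partner lists and the marker lists were chosen with earlier results of these data known. Genes were named by rule: all probe sets of the 10 genes, PPARGC1A, from each partner list up to 3 called genes in each direction with the smallest p, and for the 2 probe sets with the smallest p the 3 nearest profiles; others are named after their values were seen. Alternatives were 1 probe set per gene, a filter on the 40% dimmest probe sets, quantile or cyclic loess normalization, a robust variance with a trend, removal of probe sets with suffix s_at or x_at, hairpin as a random block, the replicate number as a block, averaged arrays, the ACTB difference as a covariate, and each array or hairpin left out.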

Additional observations from a re-analysis of the deposited data

Results flagged for a closer look

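In each arm of 4 arrays, the highest or lowest array was compared with the others, in 34 arms of 17 probe sets, and 4 arms had 1 array that stood apart by Dixon's measure. By chance about 1 arm in 20 would. IMMT read 4674 with shGFP replicate 1 and 5084 to 5111 on the other 3 control arrays. OPA1 214306_at read 146 on the same array, shGFP replicate 1, and 192 to 202 on the other 3. MFN1 211801_x_at read 115 with shScr replicate 2 and 125 to 126 on the other 3 control arrays. OPA1 212214_at read 221 with hairpin 65 replicate 2 and 255 to 257 on the other 3 knockdown arrays, and without that array its change did not pass (adjusted p = 0.0686).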

How the results depend on the processing

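All 3 called probe sets kept a negative change in every alternative run for them (22 or 23 each), and their calls depended on the setting. The count of 3 called in the comparison of arms was 1 with hairpin as a random block (14.6% of all probe sets called), 0 with averaged arrays (6.02%), 0 with the ACTB covariate (3.05%), 0 without shScr (20.6%), 0 without hairpin 65 (8.92%) and 1 without hairpin 66 (8.84%). It was 1 to 3 when 1 array was left out (14.1% to 16.7%). The count of 2 for hairpin 65 was 1 of 10 with 1 probe set per gene (2804 of all 11963 called). It was 4 of 16 without the 40% dimmest probe sets (4968 of all 13329 called), among them MFN1 211801_x_at. With quantile normalization it was 3 (4128 of 22215), and with the robust variance 3 (5402 of 22215). Without suffixes s_at and x_at, which leaves 6 probe sets, it was 1 (1857 of 11813). It was 0 with the ACTB covariate (1215 of 22215), and 0 to 2 when 1 array was left out. The count of 2 for hairpin 66 was 1 without those suffixes (1781 of all 11813 called), 0 with the ACTB covariate (1299 of 22215) and 0 to 1 when 1 array was left out. Both counts of 0 stayed at 0 in all alternatives run. The PPARGC1A change was -2.235 to -2.123 when 1 array was left out, the ACTB difference was 0.27 to 0.40 and the GAPDH difference -0.0014 to 0.021. The ACTB difference separates the arms, and as a covariate it raised the SE of all 3 called probe sets. The causes were not tested.

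The replicate numbers do not pair the arrays (correlations of deviations between hairpins from -0.104 to 0.0273). With a replicate block, 3, 2 and 2 probe sets were called in these comparisons and 3624 of all probe sets in place of 3989. With the numbers of hairpin 66 crossed, chosen after seeing the data, the counts were 3, 2 and 0.

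Changes that did not pass the test turned sign in places. With quantile normalization these were DNM1L (-0.015) and MFN2 216205_s_at (-0.014). With the ACTB covariate they were DNM1L (-0.055), MTFR1 203208_s_at (-0.0064), MFN1 207098_s_at (-0.0091) and FIS1 (0.098). Without shGFP they were MTFR1 203208_s_at (-0.0011) and FIS1 (0.0035), and without shScr OPA1 214306_at (0.041) and MFN2 216205_s_at (-0.0030). Without hairpin 65 they were DNM1L (-0.048) and MFN2 216205_s_at (-0.037), and without hairpin 66 MTFR1 203207_s_at (-0.044), OPA1 214306_at (0.0068) and FIS1 (0.0024). When 1 array was left out, the changes ran from -0.023 to 0.043 for DNM1L, -0.045 to 0.097 for GDAP1, -0.027 to 0.059 for MFN2 216205_s_at, -0.013 to 0.052 for MTFR1 203207_s_at and -0.041 to 0.019 for FIS1.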
